A study of Mus musculus with 8 samples.

Results

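Copy number profiles of 7 T-lymphoblastic lymphomas (T-LBL) were compared by the mouse in which each lymphoma arose. They came from 8 arrays in all. The members were chosen by the mouse named in each title: M7 spleen and M9 spleen are lymphomas of 2 different mice, and the other 5 arrays trace to mouse 12. The mouse 12 lineage holds the primary lymphoma M12 from a neck lymph node and 4 secondary lymphomas derived from it. Of these M12.50 was sampled from a neck lymph node as well, and the pancreas was the source for M12.49, M12.52 and M12.53. The 7 arrays therefore represent 3 independent tumours, called origins here. The eighth array, M10, is bone marrow with myeloid hyperplasia, and it served as a DNA labelled as no lymphoma and measured the same way.

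All 8 DNAs came from Balb/c mice of the genotype SEC31A-JAK2, a fusion containing the tyrosine kinase JAK2, and the labels give bone marrow transplantation as their growth protocol. M7, M9, M10 and M12 are labelled as primary transplants. The other 4 are labelled as secondary, derived from mouse 12. No age, promoter or vector, and no share of lymphoma cells in the DNA, is given in the sources used here. The sample was labelled with Cy5 on every array. The Cy3 reference was DNA from a normal Balb/c wildtype mouse, and dyes were not swapped. The question put to the data was which copy number changes recur over the 3 origins and which belong to 1 lineage.

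T cells assemble their receptor genes by cutting out the DNA between the gene segments that are joined, so a population grown from 1 T cell lacks the same stretches of receptor DNA in all of its cells. In the mouse the receptor alpha and delta genes lie together on chromosome 14, the beta genes on chromosome 6, the gamma genes on chromosome 13 and the immunoglobulin heavy chain genes on chromosome 12. Chromosome 12 also carries Bcl11b, a transcription factor needed for T cell development. The array files name no genes and no gene annotation of their genome build, mm9, was used, so the overlap of any region below with these genes was not measured.

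Values are mean log2 ratios of sample over reference across the probes of a region, centred on each array's autosomal median. A loss of 1 of 2 copies in every cell gives −1 on this scale, and errors of a single array's value are standard errors (SE) over its probes. The SD of the noise was 0.47 on M7 and 0.43 on M12.52, against 0.22 to 0.27 on the other 5 lymphoma arrays. The reference was well above background at 55.2% of autosomal probes on M7 and at 98.7% or more on the other arrays. On M7, 8862 outlier spots were left out, against 229 to 551 on the other arrays. M12.53 correlated below 0 with the other lineage arrays over all autosomal probes (r = −0.51 to −0.32, a description over probes that share the array). Over the 106 windows in called regions its r with them was 0.80 to 0.91, so its labelled dye direction was kept.

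The loss on chromosome 14 was the 1 measured change called in all 3 origins. It was shallow in both spleen lymphomas and deep in the lineage. In 12 segmentation settings it was called in 11 each for M7, M9 and M12.49 and in all 12 for the other lineage arrays. It was not called in M7 at a penalty of 12, nor in M9 and M12.49 with normexp, another background correction. Its core, covered by calls of all 7 arrays, was chr14:54337752-54763495 (mm9, 59 probes). M7 lay at −0.74 ± 0.09 and M9 at −0.51 ± 0.05 over this core. Among the lineage arrays M12.50 was lowest at −3.26, followed by M12.52 at −3.01, M12.49 at −2.93, M12.53 at −2.59 and M12 at −2.45. The myeloid array M10 lay at −0.07 ± 0.03, so both spleen lymphomas were below M10 and all 5 lineage arrays were far below both.

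The spleen mean of −0.63 ± 0.16 (SD, n = 2) was 2.22 higher on the log2 scale than the lineage mean of −2.85 ± 0.33 (SD, n = 5), and the groups did not overlap. A two-sided exact permutation test over the 21 choices of 2 of 7 arrays gave p = 0.0476, the smallest p this design allows, and 0.222 after Benjamini-Hochberg adjustment over 14 regions. With normexp, run on the median signals with an offset of 50, the difference was 0.52 (two-sided exact permutation p = 0.238). The lineage arrays share 1 tumour of origin, so p-values here count related arrays as separate. Across the genome, 6.9% of windows of 10 probes had spleen and lineage values that did not overlap, 4.06% with spleen above lineage and 2.84% with spleen below. The share of lymphoma cells is not known, so a loss carried by fewer cells and a loss of fewer copies per cell cannot be told apart.

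Many sample signals in the core were below background in the lineage. Each dim sample probe was therefore set no lower than the weakest signal that passed as well above background on its array, which turns the fold into a bound. The sample was then at least 7.48-fold below the reference in M12.50 and at least 3.56-fold below it in M12.52, with the other 3 lineage arrays at 4.52-fold or more. The same bound was 1.52-fold for M7 and 1.29-fold for M9. On the 30 core probes of M7 whose reference was well above background, M7 lay at −0.71, close to its value over all probes.

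The difference lay in the sample dye. Relative to each probe's median over the 8 arrays, the Cy5 signal in the core was 2.50 log2 units higher in M10, 1.84 in M9 and 1.72 in M7. In the lineage the same deviation ran from −0.75 to −0.14. The Cy3 reference signal deviated by −0.45 to 0.15 over the 8 arrays, a range that M12 opens at the low end. The order of the sample signal was thus M10, then M9 and M7, then the 5 lineage arrays.

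**Figure D1:**
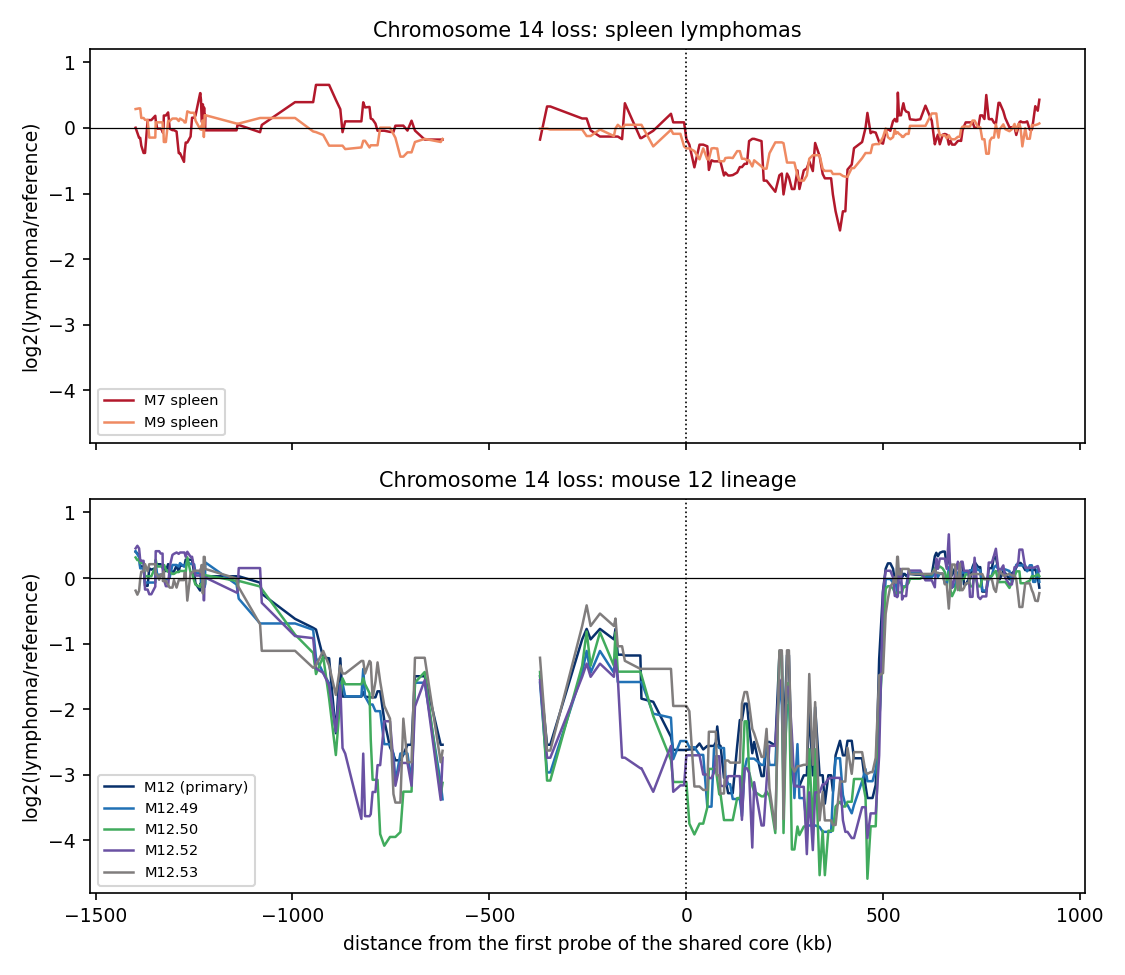
Running median of 5 probes of the log2 ratio of lymphoma over reference along chromosome 14, by distance in kb from the first core probe, for M7 and M9 (top) and the 5 mouse 12 arrays (bottom). Probes whose reference was well above background on at least 6 of the 8 arrays are drawn, and lines break over gaps of more than 100 kb. The spleen lymphomas step down at the dotted line and lie around 0 to its left, while the lineage arrays are low on both sides of it.

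The start of this loss, as well as its depth, set both spleen lymphomas apart from the lineage. Its called distal end set only M7 apart, over a stretch that held 5 measured M7 probes. M7 and M9 were first called at the same probe, at 54337752, with 5.70 kb to the probe before it. The loss ended at 54763495 in M7 and at 54810474 in M9. In the lineage it began farther out, between 53201304 and 53415714 at 5 different probes, and ended between 54818591 and 54837072. The nearest lineage start lay 922 kb before the start in the spleen lymphomas. The lineage ends lay within 18.5 kb of each other. M7 ended 55.1 kb before the nearest of them. M9 ended 8.12 kb before it, a distance smaller than the spread of the lineage ends.

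Between the lineage start and the spleen start, at chr14:53415714-54332051 (51 probes), M7 lay at −0.01 ± 0.09 and M9 at −0.03 ± 0.09. The lineage arrays lay between −2.25 and −1.65 there. At the other end, over 6 probes at chr14:54783994-54818591, M9 lay at −0.34 and the lineage between −4.09 and −3.14. M7 lay at 0.13 ± 0.23 on 5 of these probes, and at −0.04 ± 0.17 on the 3 with a bright reference. The 59 probes before 53415714, which the earliest lineage calls reach into, and the 59 probes from 54827282 on lay between −0.09 and 0.11 on all 7 lymphoma arrays. In both spleen lymphomas the shared loss thus covered the distal part of the lineage loss, and the proximal part stood near 0 over all probes. On proximal probes with a bright reference M7 lay at 0.12 ± 0.04 (25 probes) and M9 at −0.20 ± 0.07 (44 probes). M10 lay at −0.05 ± 0.04 on such probes and the lineage between −2.41 and −1.71.

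Within the core the parts fell in the same order of depth in both groups, with some steps within the SE in the spleen lymphomas. In its first 19, next 20 and last 20 probes M7 lay at −0.68 ± 0.11, −0.57 ± 0.16 and −0.97 ± 0.19. M9 lay at −0.46 ± 0.07, −0.37 ± 0.08 and −0.71 ± 0.07. The first and middle parts overlapped within their SE in M7 and in M9. The lineage means of these parts were −2.94, −2.42 and −3.20. The last part was lowest and the middle one highest in M7, in M9 and in the lineage mean.

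The loss on chromosome 6 was called in all 5 lineage arrays and in neither spleen lymphoma, yet both spleen lymphomas lay below 0 across much of it. It spanned chr6:41018389-41489670 (60 probes), with the same first and last probe in all 5 lineage arrays. M7 lay at −0.46 ± 0.09 and M9 at −0.30 ± 0.04. Among the lineage arrays M12.52 was lowest at −1.07, followed by M12.53 at −0.99, M12.50 and M12.49 at −0.92 each and M12 at −0.63. M10 lay at 0.06 ± 0.04. Both spleen lymphomas were therefore between M10 and the lineage, and M12 was the lineage array nearest to them.

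The spleen mean of −0.38 ± 0.11 (SD, n = 2) was 0.53 higher than the lineage mean of −0.91 ± 0.16 (SD, n = 5). The groups did not overlap (two-sided exact permutation p = 0.0476, adjusted p = 0.222). This region, like that on chromosome 12 below, was called in all 5 lineage arrays and in neither spleen lymphoma. The separation of the groups therefore followed largely from how the region was chosen. With normexp the difference was 0.33 (two-sided exact permutation p = 0.190). The sample dye gave the order M10 at 0.88, M9 at 0.58, M7 at 0.10 and the lineage between −0.21 and −0.08. The reference dye deviated by −0.28 to 0.08, with M12 and M7 at its low end.

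With the segmentation penalty lowered from 6 to 3, both spleen lymphomas were called here, so that the loss then recurred in 3 origins. M7 was called from 41122850 to 41534921 at −0.65 ± 0.10 and M9 from 41036581 to 41489670 at −0.31 ± 0.04. The last called probe of M9 was that of the 5 lineage arrays. Over the stretch shared by all 7, chr6:41122850-41489670 (46 probes), M7 lay at −0.63, M9 at −0.33 and the lineage between −1.11 and −0.59. Over all probes M7 fell within the lineage range, whose upper end was M12, and M9 lay above it. On the 22 of these probes with a bright reference M7 lay at −0.51 ± 0.08, above the lineage values over all probes.

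The part before that stretch ends where the M7 call starts, so an M7 value near 0 there was built in by the cut. At chr6:41018389-41112757 (14 probes) M7 lay at 0.10 ± 0.20, M9 at −0.18 ± 0.05 and the lineage between −0.95 and −0.76. On the 8 of these probes with a bright reference M7 lay at −0.24 ± 0.18. The 6 probes from the lineage end to the M7 end lay at −0.82 ± 0.46 in M7 and between −0.02 and 0.25 on the other lymphoma arrays, with 16.7% of these M7 reference probes well above background. In 12 segmentation settings the chromosome 6 loss was called once in M7 and once in M9, both at the lower penalty.

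The second loss common to the lineage, on chromosome 12, was at reference level in both spleen lymphomas. It spanned chr12:107329523-109293982 (103 probes over 1964 kb). Among the lineage arrays M12.50 was lowest at −0.94, followed by M12.53 at −0.79, M12.49 at −0.76, M12.52 at −0.71 and M12 at −0.64. M7 lay at 0.07 ± 0.05, M9 at 0.00 ± 0.02 and M10 at −0.10 ± 0.03. Neither spleen lymphoma was below M10, and the lineage was lower than both by more than the spread within either group.

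The spleen mean of 0.03 ± 0.05 (SD, n = 2) was 0.80 higher than the lineage mean of −0.77 ± 0.11 (SD, n = 5; two-sided exact permutation p = 0.0476, adjusted p = 0.222). It was there in all 3 parts of the region of 34, 34 and 35 probes: the spleen means were 0.05, 0.09 and −0.04, and the lineage means −0.79, −0.71 and −0.79. With normexp the difference was 0.43 (two-sided exact permutation p = 0.0952). On the 61 probes of M7 with a bright reference its value was −0.04. The loss was called in M7 and M9 in 0 of 12 segmentation settings. Its last probe was the same in all 5 lineage arrays, and its first probe was the same in 4, with M12.52 starting 33.5 kb earlier.

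**Figure D2:**
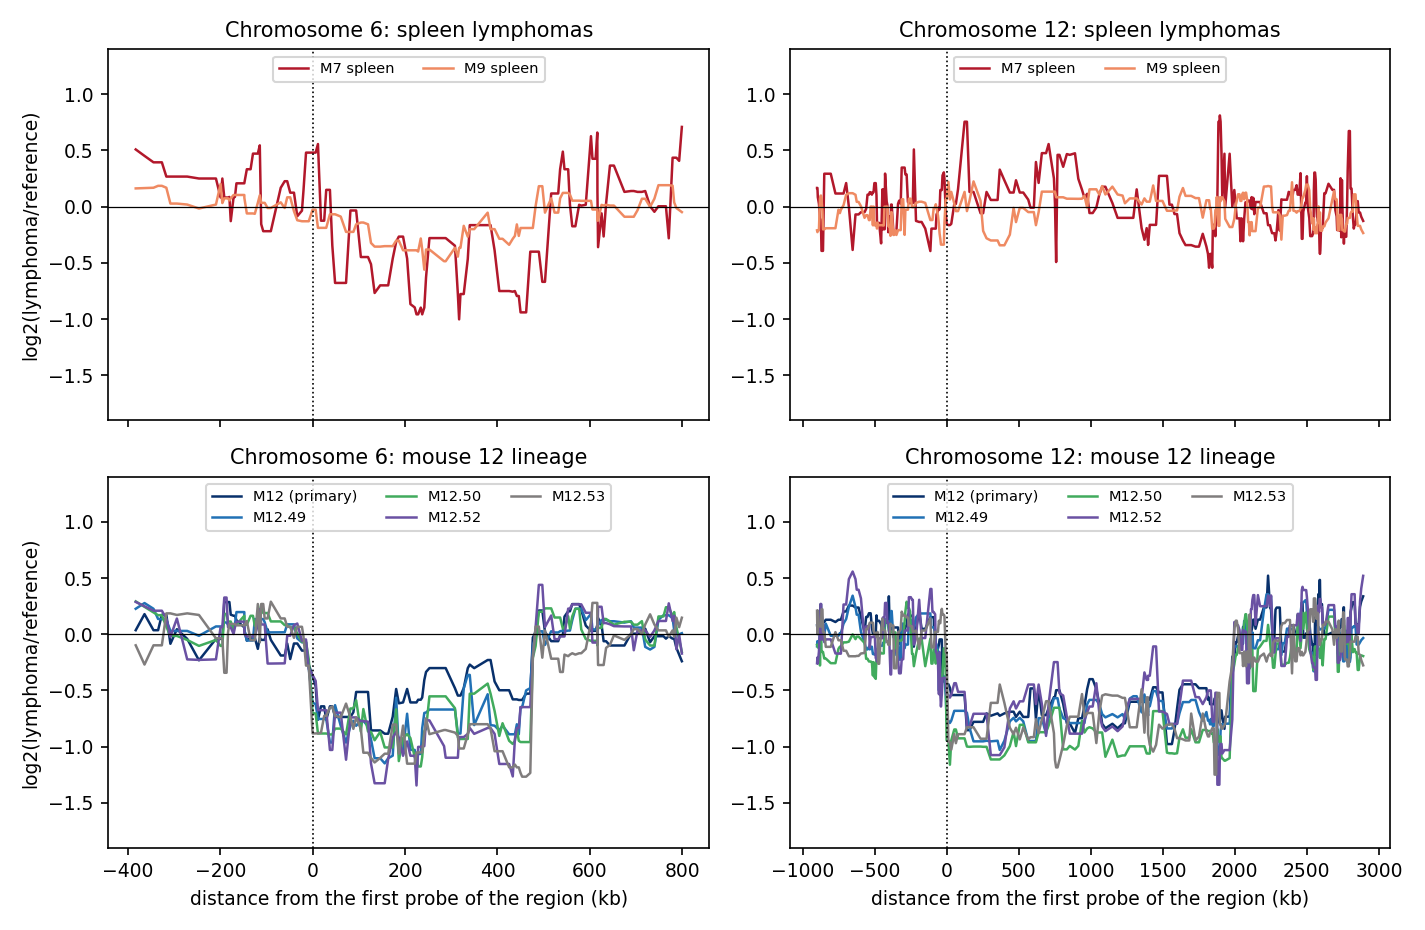
Running median of 5 probes of the log2 ratio of lymphoma over reference on chromosome 6 (left) and chromosome 12 (right), by distance in kb from the first probe of each region, for M7 and M9 (top) and the 5 mouse 12 arrays (bottom), drawn by the same rule as for chromosome 14. M7 and M9 sink below 0 within the chromosome 6 region and stay around 0 through the chromosome 12 region, where the 5 lineage arrays step down at the same place.

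The test across the genome gave the same 3 places. In limma (lmFit and eBayes) on 22135 autosomal windows of 10 probes, 23 windows differed between spleen and lineage at an adjusted p under 0.05, or 0.104% of all windows. All 23 were higher in the spleen lymphomas, and 0 were lower. The 23 windows comprised 12 on chromosome 14, 10 on chromosome 12 and 1 on chromosome 6, all within the regions above. At an unadjusted p under 0.05 the count was 1219 windows.

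The window with the smallest p, chr14:54455511-54517939, was 2.36 ± 0.15 (SE) higher in spleen than in lineage, at an adjusted p of 9.3e-06 in limma. On chromosome 12, chr12:108163867-108368742 was 0.91 ± 0.09 higher (limma adjusted p = 2.8e-04) and chr12:109177424-109226058 was 0.81 ± 0.10 higher (limma adjusted p = 0.0024). On chromosome 6, chr6:41043508-41112757 was 0.75 ± 0.10 higher (limma adjusted p = 0.0053). That window lies in the stretch before the M7 start, where M7 was 0.03 and M9 −0.19 against −1.0 to −0.66 in the lineage.

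With the 5 lineage arrays averaged to 1, so that each origin counted once, 16 windows were called, 14 of them in these regions and 2 in the chromosome 3 region with a dim reference described below. The averaged fit had 1 residual degree of freedom, from M7 against M9. Its SE was 0.22 for each named window, so its calls rest on 1 pooled spread. With origin as a random block 15 were called, all in these regions. The named chromosome 6 window was no longer called in these fits (limma adjusted p = 0.681 averaged and 0.147 with the block), nor was chr12:109177424-109226058 (0.290 and 0.0815). Without M7 both also lost their call (limma adjusted p = 0.195 and 0.0975). Array weights, which allow for the noise of M7, gave 21. Without M9, with M7 alone for the spleen lymphomas, it was 1917 (1532 higher and 385 lower). Without M7 it was 13, all in these regions. With normexp it was 0 (281 at an unadjusted p under 0.05).

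Scan day and slide could be compared only in part. M9 was scanned on the same day as M12.49 and M12.52, and within that day it exceeded them by 2.46 in the chromosome 14 core, by 0.70 in the chromosome 6 region and by 0.73 in the chromosome 12 region. M9 shared a slide with M12.50 and exceeded it by 2.75, 0.63 and 0.93 in the same order. With slide as a block, which leaves 1 residual degree of freedom, 13 windows were called, 11 in these regions and 2 on chromosome 3 where the reference was dim. The named windows of chromosomes 12 and 6 were then not called (limma adjusted p = 0.432 for chr12:108163867-108368742 and 1.0 for the other 2). With scan day as a block 30 were called, 26 in these regions and 2 on chromosome 3. M7 was the only lymphoma array of its scan day, so this fit set M9 against M12.49 and M12.52. The other 2 windows were lower in M9, chr5:145134063-145296674 by −0.61 and chr18:83078770-83161381 by −0.59. There M7 lay at 0.19 and 0.09 and M9 at −0.51 and −0.53, so M9 alone was below the lineage arrays. These 2 windows were named after their values were seen. M7 shared neither a scan day nor a slide with a lineage array, so for M7 the batch and the group cannot be told apart. M10, on the slide of M7, lay at −0.07 in the chromosome 14 core.

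**Figure D3:**
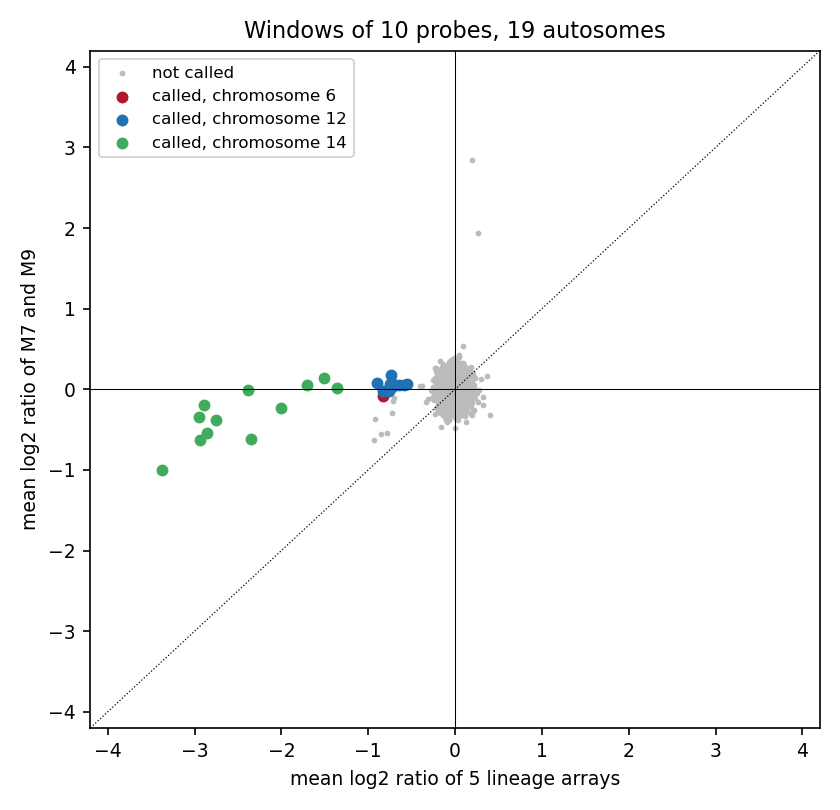
Mean log2 ratio of M7 and M9 (vertical axis) against the mean of the 5 lineage arrays (horizontal axis) for windows of 10 probes over 19 autosomes, with the 23 windows called by limma in colour and the dotted line at equal values. The called windows of chromosome 12 and chromosome 6 lie near 0 on the vertical axis, and those of chromosome 14 reach below it.

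Other window sizes added a place on chromosome 13 that windows of 10 probes did not call. With windows of 20 probes, chr13:19253466-19457911 was 0.51 ± 0.08 (SE) higher in spleen than in lineage (limma adjusted p = 0.014). With windows of 5 probes, 33 windows were called, 31 in the regions above and 2 on chromosome 13. At chr13:19253466-19297942 M7 lay at −0.12, M9 at −0.19 and M10 at 0.12. The lineage arrays lay between −1.68 and −1.20, a difference of 1.29 ± 0.14 (SE; limma adjusted p = 0.0024). At chr13:19389023-19423800 M7 lay at −0.03, M9 at 0.19 and the lineage between −0.96 and −0.57, a difference of 0.82 (limma adjusted p = 0.042). At the first place both spleen lymphomas lay below M10 and above the lineage. At the second M10 lay at 0.08, between M7 and M9. All 5 lineage arrays were lower than M7, M9 and M10 at both places.

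A further 3 measured regions were called in part of the lineage and in neither spleen lymphoma at the main settings. A loss at chr6:8333534-8458778 (19 probes) was called in M12.49 alone, at −1.09 ± 0.05. The other lineage arrays lay between −0.20 and 0.07 there, M7 at 0.27 ± 0.13 and M9 at −0.08 ± 0.12 (two-sided exact permutation p = 0.476, adjusted p = 0.606). This loss therefore separated 1 secondary lymphoma from its primary and from both spleen lymphomas.

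A gain at chr10:79059568-80764528 (351 probes) was called in M12 at 0.26 and in M12.53 at 0.45. M12.49 lay at 0.02, M12.50 at −0.12, M12.52 at 0.12, M7 at 0.04 and M9 at −0.16. The groups overlapped (two-sided exact permutation p = 0.333, adjusted p = 0.606), so the gain did not part spleen from lineage.

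The last of these, a short loss of 5 probes at chr12:114670169-114713534, was called in M12.49 at −2.35 and in M12.50 at −1.99. M12.52 lay at −1.72, M12.53 at −0.37 and M12 at −0.15. In the spleen lymphomas M9 lay at −1.09 ± 0.13 and M7 at 0.30 on 4 probes, and M10 lay at −0.33. M9 was called here at the lower penalty, which made this loss 1 of 2 origins, without M7 and without the primary M12. The groups overlapped (two-sided exact permutation p = 0.381, adjusted p = 0.606).

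**Figure D4:**
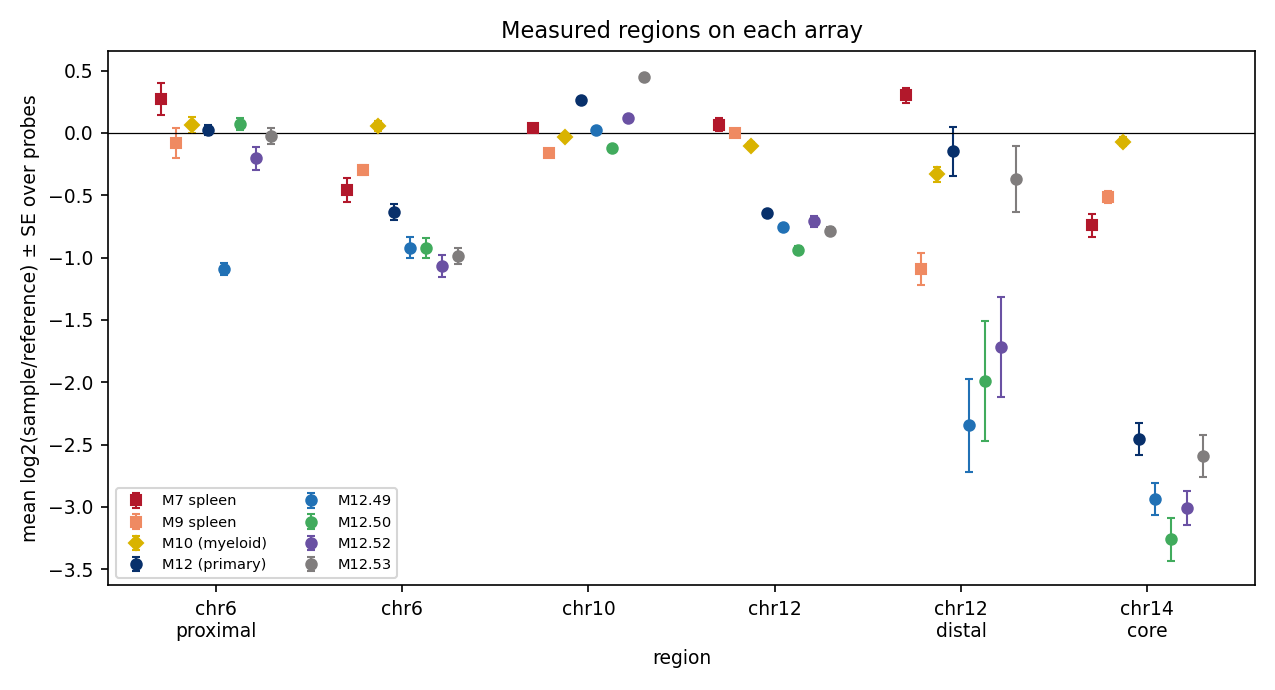
Mean log2 ratio of sample over reference (vertical axis, bars are the SE over probes) of the 6 measured regions on each of the 8 arrays, with squares for the spleen lymphomas, circles for the mouse 12 lineage and a diamond for M10. M7 and M9 lie between M10 and the lineage for the chromosome 14 core and the chromosome 6 region, and beside M10 for the chromosome 12 region.

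Counted over whole profiles, the spleen lymphomas carried few measured changes. Called segments held 0.091% of probes on M7 and 0.0777% on M9, against 0.13% on M12.50, 0.191% on M12.52, 0.208% on M12.49, 0.309% on M12.53 and 0.318% on M12. M7 had 3 calls and M9 had 9, and 2 and 8 of these lay where the reference was dim, which left the chromosome 14 loss as the 1 measured call of each. The lineage arrays had 6.80 ± 1.48 measured calls (SD, n = 5; range 5 to 9). The chromosome 14 loss alone made 3 to 5 of these calls on each lineage array, and 1 on M7 and on M9. Counted as joined regions, the lineage arrays held 4.0 ± 0.71 measured changes (SD, n = 5; range 3 to 5), against 1 in each spleen lymphoma. The measured calls covered 0.426 Mb in M7 and 0.473 Mb in M9, against 3.85 to 6.26 Mb in the lineage. A weaker shift needs more probes to be called on the noisier M7 and M12.52.

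Joined over arrays, the calls made 14 regions, 6 of them measured. By origin, 1 measured region was called in all 3, 5 were called in the lineage alone (2 in all 5 arrays, 3 in part of them) and 0 in the spleen lymphomas alone. At the lower penalty there were 15 measured regions: 2 in 3 origins, 1 in 2 origins, 6 in the lineage alone, 3 in M7 alone and 3 in M9 alone. The 3 private to M7 at that penalty, on chromosomes 1, 6 and 12, had means of 0.26, −0.26 and −0.26, just past the call threshold of 0.25. The 3 called in M9 alone lay on chromosomes 2, 8 and 12, at −0.26, −0.68 and 0.32. In the chromosome 12 gain M12.52 lay at 0.40 and M12.49 at 0.31, though it was called in neither, so its values were not particular to M9. The loss on chromosome 8 held 6 probes, and M12.52, in which it was not called, lay at −0.64 there.

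Recurrence was also read from each array's own calls. In M7, 66.7% of calls recurred in another origin and in M9 77.8%, against 14.3% to 40% in the lineage, where the split of the chromosome 14 loss into several calls adds to the total. Counted as joined regions, the share was 66.7% in M7 and in M9 and 20% to 60% in the lineage. Apart from the chromosome 14 loss these recurrent spleen calls lay where the reference was dim, so the share does not describe the measured part of the profiles.

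The regions with a dim reference gave values that could not be ordered. Under 75% of their reference probes were well above background (median over arrays). Over chr4:111736907-113905033 M7 lay at −0.83 and M9 at 0.62, called in opposite directions in parts of it. On the probes with a bright reference the values were −0.03 in M7 (24 probes) and 0.13 in M9 (54 probes). On chromosome 3, chr3:44188385-44493400 was called as a gain in M7 at 1.86, in M9 at 4.36 and in 2 lineage arrays, and M10, labelled myeloid hyperplasia, lay at 5.25. A gain there was thus not particular to the lymphomas. The gains called in M9 alone at chr11:71001060-71107103 and chr19:12266298-12308446 were at 1.26 and 1.29, with no sample probe well above background in M9.

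Whole chromosomes showed no step. The medians of the 19 autosomes lay between −0.04 and 0.04 on all 7 lymphoma arrays. The autosomes with the largest differences between spleen and lineage were chromosome 1 at 0.01 and chromosome 5 at −0.01 (two-sided exact permutation p = 0.381 and 0.429, adjusted p = 1 for both). At an exact p under 0.05 the count was 0 of 19, and after adjustment it was also 0.

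Tests against the reference found no window that passed. For the spleen lymphomas against the reference, limma called 0 of 22135 windows (1654 at an unadjusted p under 0.05). For the 3 origins with the lineage averaged, it also called 0 (417 at an unadjusted p under 0.05). With 2 or 3 arrays of unequal noise the number of arrays limits the precision. Among the windows nearest to passing, the smallest p of the 3 origins belonged to chr6:41263957-41354379, at −0.66 in M7, −0.42 in M9 and −0.78 in the lineage mean (limma adjusted p = 0.995). For the spleen pair, chr6:41205049-41260280 had −0.79 in M7 and −0.47 in M9 (limma adjusted p = 0.66), with M10 at 0.05.

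By size alone, 9 windows (0.0407%) were at or below −0.25 in M7, in M9 and in the lineage mean. All 9 lay in the chromosome 6 or chromosome 14 region, 3 and 6 of them. At or above 0.25 in the same 3 there was 1 window, in the chromosome 3 region with a dim reference. These counts describe the arrays and carry no test.

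The other windows nearest to passing had limma adjusted p-values of 0.571 or more. Lower in spleen than lineage were chr9:58573826-58714167 by −0.39, chr1:108822087-108886930 by −0.37 and chr12:115245547-115318603 by −0.47. In the spleen pair against the reference, chr7:105000456-105065560 was at 0.43, chr11:17962887-18285490 at 0.37 and chr3:108835096-108931835 at 0.33. On the low side chr18:36480864-36546083 was at −0.38 and chr6:71845408-71919259 at −0.37. Over the 3 origins, chr11:16739197-16821220 was at 0.25, chr1:81137401-81213148 at 0.19, chr12:16925116-16995636 at 0.20, chr3:152415124-152511168 at −0.24 and chr10:93592908-93655665 at −0.25. None of these passed, and none lay in a region called at the main settings.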

How the data were processed

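Per the file headers, Agilent Feature Extraction 10.5.1.1 made the deposited signal intensities, with background subtraction and linear dye normalisation (the submitters' processing notes name 9.1.1). The authors' deposited log10 ratios were an alternative, and the deposited table of the series holds the same log10 values. Positions are on mm9 by probe name, because the file of M12 is on mm8. Log2 ratios of processed Cy5 over Cy3 intensities were taken for 221455 autosomal probes without control or outlier spots.

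Before segmentation, values more than 3 SD from the running median (11 probes) were pulled in to that limit, then segmented by exact penalised least squares (penalty 6 times variance times log of probe number, at least 3 probes, merging below 0.15). Calls needed an absolute mean of 0.25 over 5 probes and were joined below 150 kb. A region's core is the run covered by the most origins. A reference below 75% well above background, as the median over arrays, was called dim. Tests were two-sided exact permutation tests and limma 3.58.1 in R 4.3.3, with Benjamini-Hochberg adjustment and a threshold of 0.05. Scripts ran in Python 3.11.15 with numpy 2.4.6, pandas 2.3.3 and scipy 1.17.1, and were tested on simulated data.

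Named were the joined regions of M7 or M9, those in 2 or more lineage arrays and the 5 largest others, the windows passing per comparison and direction (otherwise the 3 smallest p), and the 2 autosomes with the largest difference. Members and lists were chosen with earlier results of these data known. Alternatives are in the closing section.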

Additional observations from a re-analysis of the deposited data

Results flagged for a closer look

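In 54 sets of the 5 lineage values (regions, parts of regions, chromosome medians and call counts), 4 had 1 array far from the other 4, and chance alone gives about 1 in 20. M12 was far below the other lineage arrays in both overlapping chromosome 3 regions, at −3.40 and −3.39, and its reference was well above background at 100% of the probes of the first, against 5.56% to 16.7% on the other arrays. M12.49 stood apart at chr6:8333534-8458778, at −1.09, and in its number of autosomal calls, at 15 against 7 in each of the other 4 lineage arrays. The first chromosome 3 region was called in M12 alone and the chromosome 6 one in M12.49 alone. Those flags follow from how the regions were chosen, so the count of far arrays cannot be set against chance.

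The difference between spleen and lineage itself passed the limma test in 4 named windows: 2.36 at chr14:54455511-54517939, 0.91 at chr12:108163867-108368742, 0.81 at chr12:109177424-109226058 and 0.75 at chr6:41043508-41112757. Over their 22 alternatives the first passed in 20, the second in 18, and the other 2 in 14 each. The limma adjusted p ranged from 2.2e-06 to 1.0, 9.5e-05 to 1.0, 9.9e-04 to 1.0 and 9.1e-04 to 1.0 in the same order. These ranges leave aside the fits with the lineage averaged and with M12 alone, which have 1 residual degree of freedom. The counts over 22 alternatives include those fits. The fit with slide as a block, also with 1 residual degree of freedom, is in both the counts and the ranges. All 4 differences stayed above 0 in all 22.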

How the results depend on the processing

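No paired analysis was possible because the replicate numbers run in accession order over different mice. The signs of the chromosome 6, 12 and 14 differences were the same in all 17 alternatives, with ranges of 0.13 to 0.61, 0.43 to 0.86 and 0.52 to 2.33, lowest with normexp on chromosomes 12 and 14 and with M12.53 turned on chromosome 6. Leaving out each array in turn gave 0 to 1 regions in 3 origins and 0 to 1 in 2 origins (the chromosome 14 loss without M7 or M9), 3 to 5 regions without overlap (5 without M9), and 13 to 1917, 0 to 1671 and 0 to 543 limma windows for spleen minus lineage, spleen against reference and 3 origins (highest without M9, M9 and M7). The mean number of calls, 6 in spleen and 8.60 in the lineage, became 15 and 13.8 at a penalty of 3, 9.5 in spleen without winsorising, 1 in spleen on probes with a bright reference, 10 and 4.6 with normexp on median signals, and 3 in spleen with the deposited LogRatio. The recurrent share, 72.2% and 22.3%, became 47.2% and 50.9% at a penalty of 3, 58.3% and 46.2% without winsorising, 46.9% and 5.71% with normexp, and in spleen 100% on bright probes and 87.5% with LogRatio. Measured regions in 3 origins became 2 at a penalty of 3 and 0 at a penalty of 12, where M7 was not called on chromosome 14. With normexp that count stayed at 1, but M9 and M12.49 were not called in the chromosome 14 core. Those in 2 origins became 1 at penalties of 3 and 12, at a threshold of 0.15 and without winsorising, and 3 with normexp. Those in spleen alone became 6 at a penalty of 3, 1 at a threshold of 0.15, 2 without winsorising and 13 with normexp, which also gave 10 in the lineage alone. Regions without overlap became 1 with normexp, 6 with the lineage mean counted once and 0 with the sign of M12.53 turned, an alternative added after seeing the data. Limma windows for spleen minus lineage became 0 with normexp, 14 on bright probes, 14 in windows of 20 probes, 15 with M12 alone, 15 with origin as a random block, 13 with slide as a block and 0 with M12.53 turned. For 3 origins they became 204 with normexp and 4 with M12 alone, all 4 lower and in the regions above. Signs reversed for the distal chromosome 12 loss with M12 alone (−0.25), for chromosome 5 centred on the mode (0.055), for chr9:58573826-58714167 with normexp (0.0048), on bright probes for chr11:17962887-18285490 (−0.039), chr18:36480864-36546083 (0.056) and chr6:71845408-71919259 (0.067), and with M10 subtracted for chr11:16739197-16821220 (−0.16), chr12:16925116-16995636 (−0.12) and chr3:152415124-152511168 (0.091). Normexp adds an offset of 50, near the median net reference signal of 57 on M7. The causes of the changes, those with normexp included, were not tested.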
